A study of Mus musculus with 18 samples.

Results

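The 10 genes described here encode matrix proteins and other products by which hepatic stellate cells are known: Bgn, Dcn, Col1a1, Col1a2, Col3a1, Reln, Pdgfrb, Des, Hgf and Ecm1. They were chosen by symbol, and all 10 were found among the 18853 genes listed for 0 h and 3 h, the 18373 for 6 h and 12 h, and the 24781 for the antibody groups. The libraries were made from total RNA of Kupffer cells, which are macrophages that live in the liver sinusoids, of wild-type C57BL/6J mice. There were 18 libraries in 6 groups of 3. Groups of the time course were taken at 0 h, 3 h, 6 h and 12 h, with acetaminophen, a drug whose overdose injures hepatocytes, as the labelled treatment. The 0 h columns are named for PBS although the label names acetaminophen, and the group is called 0 h here. In the antibody groups, mice had acetaminophen with IgG, or acetaminophen with an antibody to CD41, a platelet integrin subunit. No time is labelled for mice given an antibody, and whether replicates were separate animals is not stated, so a p-value here reflects the spread among the libraries, which may be technical. Cells were prepared by collagenase perfusion, a low-speed spin, an OptiPrep gradient and adherence to a dish, and the gradient fraction also holds sinusoidal endothelial cells, per the labels' protocol.

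Stellate cells are the vitamin A-storing pericytes of the liver sinusoid and lie between hepatocytes and the endothelium. In liver injury they turn into myofibroblasts, which are the main makers of fibrillar collagen in the liver, and platelet-derived growth factor acting through Pdgfrb is a known stimulus of their growth. Kupffer cells are not known as a source of fibrillar collagen, while several of the 10 genes, among them Hgf and Bgn, are also expressed by cells other than stellate cells.

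A library of the time course held 18644358 to 20583099 counts in all, and a library of the antibody groups 28017439 to 38382509. The summed level of 16 Kupffer cell markers was 12303 to 26432 CPM (counts per 1e6 counts of the library), with none of the 16 at 0 in a whole group. Markers of other cells were present as well, and none of their genes was at 0 in a whole group: 16 sinusoidal endothelial markers summed to 2481 to 17486 CPM, 18 hepatocyte markers to 1504 to 10596 CPM, and a list of 25 further stellate cell markers, 24 of them in the time-course tables, to 105 to 854 CPM. The 12 h libraries stood apart from each other, with endothelial sums of 14458, 5865 and 2481 CPM and further stellate sums of 315, 367 and 109 CPM in replicates 1, 2 and 3. In these bulk samples, fewer cells of a type and less RNA per cell cannot be told apart. Fits were made within each deposited table, and levels set across tables are a description, because table and condition cannot be told apart.

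Per gene length, the levels of the 10 genes spanned a wide range at 0 h. In FPKM, the authors' values scaled to library size and transcript length, Ecm1 stood highest at 178 ± 53.2 (SD, n = 3), the 407th of 18853 genes. Dcn followed at 106 ± 45.6 FPKM and Bgn at 95.9 ± 17.9 FPKM, and each overlapped the gene named before it. Hgf lay below them at 25.7 ± 4.36 FPKM and Reln below Hgf at 6.96 ± 3.33 FPKM, without overlap between libraries. Des (2.38 ± 0.845 FPKM), Col3a1 (2.35 ± 1.53), Col1a2 (2.21 ± 0.817) and Pdgfrb (1.75 ± 0.495) could not be ordered beyond their spread. Col1a1 was the lowest at 0.767 ± 0.268 FPKM, the 12292nd gene. The proteoglycans and Ecm1 were thus among the more abundant transcripts of the preparations, and the fibrillar collagen chains and the classical stellate proteins Pdgfrb and desmin among the less abundant.

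**Figure D1:**
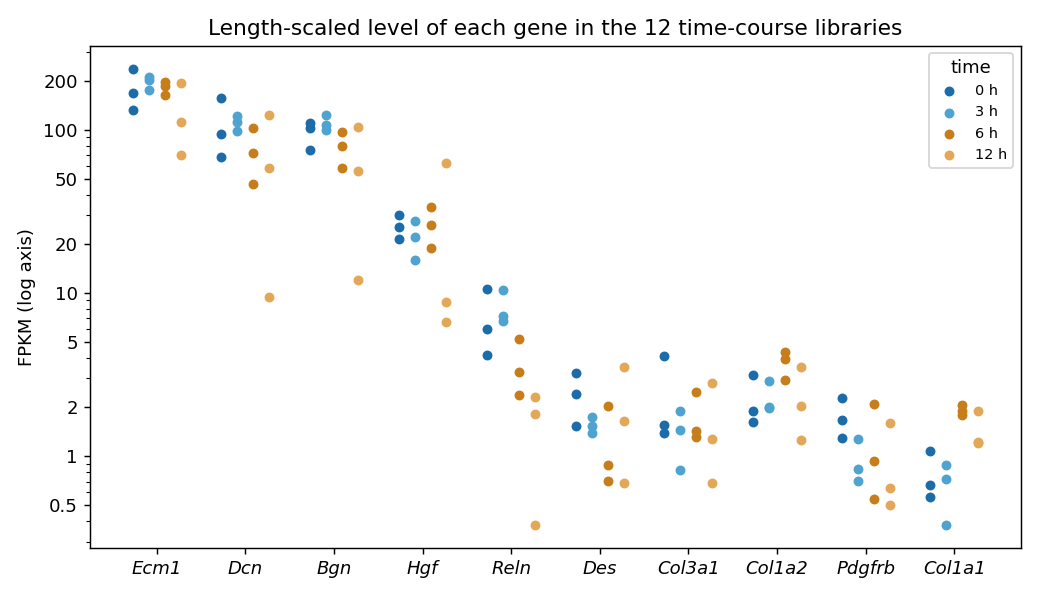
FPKM as deposited (log axis) of each gene in the 12 time-course libraries, in the order of the 0 h means, with 1 point per library coloured by time. Ecm1, Dcn and Bgn lie above the other genes at 0 h, and the 12 h points are the most spread for most genes.

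Bgn (gene identifier 12111; GRCm38 chromosome X, 73483601 to 73495936) encodes biglycan, a small leucine-rich proteoglycan that binds collagen and, once released, is known to act on macrophages through Toll-like receptors. Its levels were 180, 243 and 260 CPM at 0 h and 294, 255 and 238 CPM at 3 h. At 6 h they were 139, 189 and 230 CPM, and at 12 h 249, 133 and 28.6 CPM. With IgG they were 57.8, 71.0 and 74.4 CPM, and with anti-CD41 168, 199 and 183 CPM. The IgG libraries lay below every anti-CD41 library, whereas the groups compared within the time course overlapped. Among all 18 libraries only 12 h replicate 3 was lower than the IgG group.

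Dcn (gene identifier 13179; GRCm38 chromosome 10, 97479500 to 97518163) encodes decorin, the closest relative of biglycan, which decorates collagen fibrils and binds TGF-beta. Its levels were 124, 171 and 285 CPM at 0 h, 221, 204 and 178 CPM at 3 h, 84.7, 131 and 187 CPM at 6 h and 106, 221 and 17.1 CPM at 12 h. In the antibody groups they were far lower, at 6.46, 10.9 and 28.3 CPM with IgG and 15.0, 17.7 and 21.8 CPM with anti-CD41. The antibody groups overlapped each other, and only 12 h replicate 3 of the time course came down to their range. Dcn varied more than any other of the 10 genes, with the highest of the 18 libraries at 44.2 times the lowest. The median of the 12 time-course libraries was 10.7 times that of the 6 antibody libraries, against 1.93 times for Bgn.

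The ratio of Bgn to Dcn, in CPM within a library, was near even in the time course and high in the antibody groups. It was 1.45, 1.42 and 0.913 at 0 h, 1.33, 1.25 and 1.34 at 3 h, and 1.65, 1.44 and 1.23 at 6 h. At 12 h it was 2.34, 0.599 and 1.68. With IgG it was 8.95, 6.51 and 2.63, and with anti-CD41 11.2, 11.3 and 8.39, so that IgG replicate 1 overlapped the anti-CD41 group.

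Col1a1 (gene identifier 12842; GRCm38 chromosome 11, 94936224 to 94953042) and Col1a2 (gene identifier 12843; chromosome 6, 4505618 to 4541543) encode the chains of type I collagen, the main fibrillar collagen of scar tissue. Col1a1 was 3.95, 3.31 and 6.28 CPM at 0 h, 5.23, 2.23 and 4.29 CPM at 3 h, 11.03, 10.5 and 12.2 CPM at 6 h and 7.18, 11.1 and 7.14 CPM at 12 h. Col1a2 was 8.32, 9.72 and 16.3 CPM at 0 h, 14.9, 10.2 and 10.4 CPM at 3 h, 20.3, 15.2 and 22.6 CPM at 6 h and 10.5, 18.3 and 6.48 CPM at 12 h. All 3 libraries at 6 h and all 3 at 12 h were above every 0 h and 3 h library for Col1a1, whereas for Col1a2 the times overlapped. The 0 h and 3 h values and the 6 h and 12 h values come from separate tables, so no test was made of this step. In the antibody groups Col1a1 was 3.11, 0.678 and 5.45 CPM with IgG and 3.10, 4.12 and 6.57 CPM with anti-CD41. Col1a2 was 2.86, 1.07 and 4.87 CPM with IgG and 5.62, 5.19 and 6.38 CPM with anti-CD41. In plain CPM the groups overlapped for Col1a1 and did not for Col1a2, and every antibody library had less Col1a2 than every time-course library. Divided by the scaling factors of the fit, 0.911 for IgG replicate 3 and 1.046 for anti-CD41 replicate 2, the antibody groups overlapped for Col1a2.

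Col3a1 (gene identifier 12825; GRCm38 chromosome 1, 45311538 to 45349706) encodes the chain of type III collagen, the fibrillar collagen of reticular fibres. Its levels were 7.65, 8.57 and 22.7 CPM at 0 h, 10.4, 4.51 and 7.94 CPM at 3 h, 7.86, 7.28 and 13.7 CPM at 6 h and 3.82, 15.5 and 7.03 CPM at 12 h. With IgG they were 5.10, 2.84 and 13.4 CPM and with anti-CD41 11.7, 8.56 and 9.82 CPM. The groups of each comparison overlapped, and Col3a1 was the only one of the 10 genes whose median was higher in the antibody libraries (9.19 CPM) than in the time course (7.90 CPM).

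Within libraries, the collagen chains did not keep 1 proportion. The ratio of Col1a1 to Col3a1 was 0.517, 0.386 and 0.276 at 0 h and 0.502, 0.494 and 0.541 at 3 h. It was 1.40, 1.45 and 0.892 at 6 h and 1.88, 0.718 and 1.01 at 12 h, above every 0 h and 3 h library. The ratio of Col1a1 to Col1a2 averaged 0.401 ± 0.0686 at 0 h, 0.328 ± 0.10 at 3 h, 0.591 ± 0.0874 at 6 h and 0.797 ± 0.266 at 12 h (SD, n = 3 each). In both ratios the 6 h and 12 h libraries did not overlap those of 0 h and 3 h. With IgG the ratio of Col1a1 to Col3a1 was 0.608, 0.239 and 0.407, and with anti-CD41 it was 0.266, 0.482 and 0.668.

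**Figure D2:**
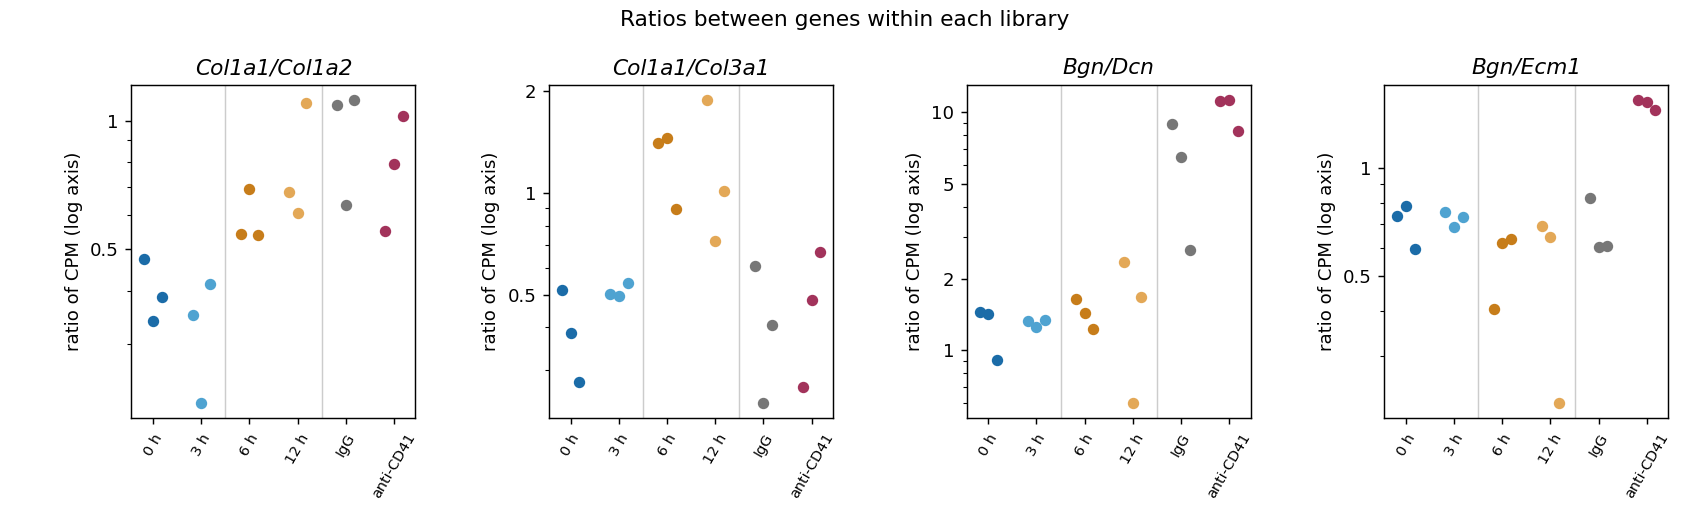
Ratio of CPM between pairs of genes (log axis) in each library, with 1 point per library by group and grey lines between the separately made tables. Col1a1/Col3a1 was 0.276 to 0.541 at 0 h and 3 h and 0.718 to 1.88 at 6 h and 12 h. Bgn/Ecm1 was 1.44 to 1.54 with anti-CD41, above the other 15 libraries.

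Reln (gene identifier 19699; GRCm38 chromosome 5, 21884454 to 22344705) encodes reelin, a large secreted glycoprotein best known for guiding neurons in the developing brain and, in liver, for its expression in stellate cells. Its levels were 48.8, 70.2 and 124 CPM at 0 h and 121, 83.6 and 78.0 CPM at 3 h. They were 27.7, 38.4 and 61.1 CPM at 6 h and 27.1, 21.1 and 4.45 CPM at 12 h. In plain CPM all 12 h libraries lay below all 6 h libraries, if narrowly, and below every library of 0 h and 3 h. The scaling factors of the fit were 1.022 for 6 h replicate 1 and 0.989 for 12 h replicate 1. Divided by them, the 6 h and 12 h groups overlapped. In the antibody groups Reln was 3.68, 4.42 and 8.45 CPM with IgG and 7.32, 5.13 and 8.18 CPM with anti-CD41, and the groups overlapped. The ratio of Reln to Dcn was 0.394 to 0.435 at 0 h, 0.410 to 0.548 at 3 h, 0.293 to 0.328 at 6 h and 0.0953 to 0.261 at 12 h. Reln overlaps annotated pseudogenes and a small nuclear RNA, and without a stated strand their reads cannot be told apart.

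Ecm1 (gene identifier 13601; GRCm38 chromosome 3, 95734147 to 95739876) encodes extracellular matrix protein 1, a secreted glycoprotein. Its levels were 244, 310 and 439 CPM at 0 h, 391, 373 and 327 CPM at 3 h, 343, 304 and 363 CPM at 6 h and 360, 206 and 129 CPM at 12 h. With IgG they were 70.0, 118 and 122 CPM, and with anti-CD41 109, 130 and 126 CPM. The groups overlapped in each comparison. Ecm1 varied least of the 10 genes, with the highest of 18 libraries at 6.27 times the lowest. The gene overlaps the annotated Mir7014.

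The ratio of Bgn to Ecm1 was higher in each anti-CD41 library than in the other 15. This ratio, examined after the levels had been seen, was 0.594 to 0.785 at 0 h, 0.683 to 0.752 at 3 h, 0.406 to 0.635 at 6 h and 0.221 to 0.690 at 12 h. It was 0.826, 0.603 and 0.608 with IgG, and 1.54, 1.53 and 1.44 with anti-CD41. An annotated start of each of these genes is shown because Bgn was called with anti-CD41 and Ecm1 was not. The Ecm1 window lies wholly inside the annotated gene, which ends at 95739876. Its positions are therefore counted from a start within the gene, not from the gene's outer end. The windows run from 250 bases before to 50 after the start, on the gene's strand, from RefSeq on GRCm38.p6, with motif matches in capitals.
Bgn, chrX:73483351-73483650, plus strand: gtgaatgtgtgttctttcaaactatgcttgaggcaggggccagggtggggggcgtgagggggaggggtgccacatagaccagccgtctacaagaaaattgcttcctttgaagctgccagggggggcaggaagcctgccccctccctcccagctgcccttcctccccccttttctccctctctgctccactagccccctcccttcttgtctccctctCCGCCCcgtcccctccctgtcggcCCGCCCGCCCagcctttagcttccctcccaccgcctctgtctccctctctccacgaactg
Ecm1, chr3:95739520-95739819, minus strand: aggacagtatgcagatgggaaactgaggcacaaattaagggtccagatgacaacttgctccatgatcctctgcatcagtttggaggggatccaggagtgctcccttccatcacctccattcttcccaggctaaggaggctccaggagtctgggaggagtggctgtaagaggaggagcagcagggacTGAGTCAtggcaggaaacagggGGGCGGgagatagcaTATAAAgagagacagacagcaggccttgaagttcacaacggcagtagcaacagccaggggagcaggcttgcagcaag
The motifs searched on both strands were the TATA box as TATAAA, the GC box as GGGCGG, the CCAAT box as CCAAT and the AP-1 site as TGAGTCA. The Bgn window held 3 GC boxes, all on the reverse strand as CCGCCC, starting at -34, -10 and -6 from the start, the last 2 overlapping. No TATAAA lay in it, and its GC content was 63.7% against a median of 52.7% over 32851 RefSeq windows of this length. The Ecm1 window held TATAAA at -27, GGGCGG at -42 and TGAGTCA at -64, on the forward strand. Of all windows, 13.62% held the TATA box, 35.66% the GC box, 37.41% the CCAAT box and 5.202% the AP-1 site. Windows were listed for 7 of the 10 genes, and these matches describe the letters only.

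Pdgfrb (gene identifier 18596; GRCm38 chromosome 18, 61045127 to 61085067) encodes the beta receptor for platelet-derived growth factor, which marks stellate cells in the liver. Its levels were 6.98, 8.97 and 12.2 CPM at 0 h and 6.64, 3.82 and 4.51 CPM at 3 h, 2.97, 4.68 and 11.2 CPM at 6 h and 3.31, 8.60 and 2.68 CPM at 12 h. With IgG they were 3.57, 2.29 and 2.48 CPM and with anti-CD41 2.54, 1.39 and 2.27 CPM. The 3 h libraries lay just below those at 0 h, and the groups of the other comparisons overlapped.

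Des (gene identifier 13346; GRCm38 chromosome 1, 75360292 to 75368579) encodes desmin, the intermediate filament protein used to stain rodent stellate cells. It was 4.62, 7.22 and 9.71 CPM at 0 h, 4.18, 5.26 and 4.61 CPM at 3 h, 2.13, 2.70 and 6.15 CPM at 6 h and 4.96, 10.5 and 2.07 CPM at 12 h. With IgG it was 1.53, 1.29 and 2.70 CPM and with anti-CD41 2.30, 0.630 and 2.21 CPM, the lowest value resting on 20 reads. The groups of each comparison overlapped. The noncoding gene Gm15179 overlaps Des.

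Hgf (gene identifier 15234; GRCm38 chromosome 5, 16553495 to 16619439) encodes hepatocyte growth factor, which drives hepatocyte proliferation through the receptor Met. Its levels were 56.2, 67.3 and 79.8 CPM at 0 h, 58.3, 42.2 and 73.8 CPM at 3 h, and 89.0, 50.0 and 68.7 CPM at 6 h. At 12 h they were 166, 16.4 and 23.3 CPM, so that this group held both the highest and the lowest of the 18 libraries. With IgG they were 31.3, 47.2 and 64.1 CPM and with anti-CD41 49.0, 51.0 and 64.7 CPM. The groups overlapped in each comparison. Hgf was the gene nearest to even between the time course and the antibody libraries, apart from Col3a1, with medians of 62.8 and 50.0 CPM. The noncoding gene Gm31113 overlaps Hgf.

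**Figure D3:**
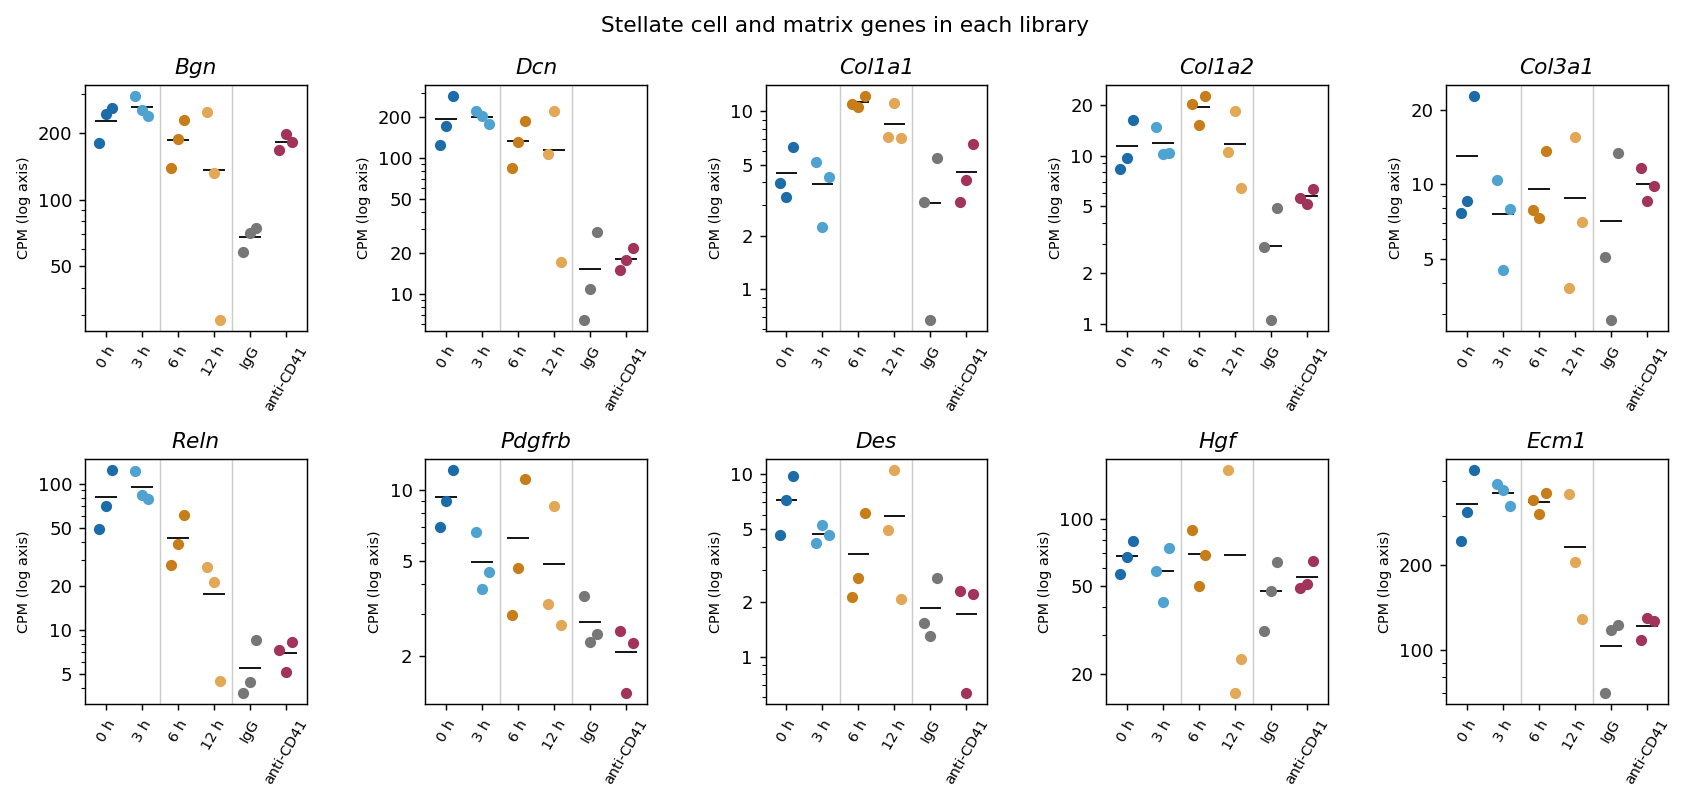
CPM (log axis, a separate scale per panel) of each gene in each of the 18 libraries, with black bars at group means and grey lines between the separately made tables. With anti-CD41, Bgn lies at 168 to 199 CPM, above the IgG libraries at 57.8 to 74.4 CPM. Dcn and Reln are low in both antibody groups.

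The first comparison asked how the preparations at 3 h differed from 0 h. Of the 10 genes 9 were not called. Pdgfrb fell from 9.39 ± 2.63 to 4.99 ± 1.47 CPM (SD, n = 3 each), a log2 change of -0.84 ± 0.27 (SE) with edgeR adjusted p = 0.0425. The filament gene Des moved the same way, from 7.18 ± 2.54 to 4.68 ± 0.540 CPM, but was not called (log2 change -0.53 ± 0.27, edgeR adjusted p = 0.157). Bgn had means of 228 ± 42.5 and 262 ± 28.9 CPM and was not called (log2 change 0.28 ± 0.15, edgeR adjusted p = 0.178).

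A gene is called when its adjusted p, over all genes tested, is below 0.05. At 3 h, 0 of the 10 genes were called higher and 1 lower, all 10 having passed the filter on low counts. Over all 14161 genes tested, 19.1% were called higher, 23.0% lower and 42.1% in either direction, so the share among the 10 genes was below the background. Pdgfrb alone had groups that did not overlap, in the lower direction, against 32.2% of all genes. The median log2 change of the 10 genes was 0.002, with 5 above 0 and 5 below, and that of all genes was -0.01. The call of Pdgfrb was lost when any of 0 h replicates 2 and 3 or 3 h replicates 2 and 3 was left out, with adjusted p of 0.0978 to 0.121 by edgeR. On the deposited FPKM, limma gave adjusted p = 0.0572 with a pseudocount of 1 and 0.0565 with a pseudocount of 0.1.

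The lists beside the 10 genes are to be read against the 42.1% of all genes called at 3 h, and no test set them apart from it. Of 5 PDGF ligands and receptors, Pdgfa fell from 23.3 ± 0.339 to 8.25 ± 1.43 CPM. Pdgfb, which encodes a ligand of Pdgfrb, fell from 52.2 ± 8.59 to 14.1 ± 6.15 CPM. The other 3 were not called, among them Pdgfd, which was higher at 3 h (9.70 ± 1.36 and 12.5 ± 0.991 CPM). Of 10 genes for the HGF receptor, activators and inhibitors, 3 fell and 7 were not called: Met by 1.88, the protease gene Plau by 2.55 and the protease inhibitor gene Spint2 by 0.71 on the log2 scale. Of 5 genes listed as reelin receptors and adaptors, 4 passed the filter on low counts and the adaptor gene Dab1 did not. Among the 4 tested, Dab2 rose by 0.67 and the receptor gene Lrp8 fell by 0.66.

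Of 23 tested further stellate markers, 1 rose and 3 fell. Nes, an intermediate filament gene, fell from 65.7 ± 7.24 to 13.1 ± 2.11 CPM and Ngfr by 1.79 on the log2 scale, and Ecm2 rose by 0.74. Lrat, the retinol-esterifying enzyme that defines quiescent stellate cells, was 6.06, 13.4 and 31.4 CPM at 0 h and 9.05, 5.04 and 8.58 CPM at 3 h. The list's median log2 change was -0.19. Of 8 tested myofibroblast genes 3 fell, Cald1 by 1.68, Tpm1 by 0.86 and Mylk by 0.66, and 1 of 13 fibroblast and mesothelial markers fell, Fbln2 by 1.06.

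Among 36 tested other collagens and matrix proteins, 1 rose and 6 fell. The fibronectin gene Fn1 fell from 1543 ± 908 to 193 ± 144 CPM and the versican gene Vcan from 373 ± 256 to 14.1 ± 18.5 CPM. The basement-membrane collagen gene Col15a1 fell by 2.21 and Col5a3 by 1.98 on the log2 scale. Of 22 collagen processing enzymes 3 rose and 5 fell. The collagen chaperone gene Serpinh1 fell from 86.7 ± 26.5 to 29.4 ± 4.11 CPM, and the prolyl hydroxylase gene P3h1 rose by 0.72. Of 13 collagen and matrix receptors 1 rose and 3 fell, with Sdc4, a syndecan gene, rising by 2.33.

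Markers of other cells moved in the same comparison. Of 18 hepatocyte markers 11 fell and none rose, with summed levels of 5870 to 10596 CPM at 0 h and 2585 to 5201 CPM at 3 h. Of 16 Kupffer cell markers 5 rose and 1 fell, of 16 endothelial markers 3 rose and 2 fell, and of 8 cholangiocyte markers 3 fell. Further stellate markers summed to 463, 676 and 854 CPM at 0 h and 522, 562 and 495 CPM at 3 h, which overlap. The part of these shifts in the fall of Pdgfrb was not tested.

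In the comparison of 12 h with 6 h, the 12 h libraries differed widely among themselves. Reln had means of 42.4 ± 17.0 CPM before and 17.5 ± 11.7 CPM after (SD, n = 3 each), with a log2 change of -1.28 ± 0.62 (SE) and no call (edgeR adjusted p = 0.697). Col1a2 was 19.4 ± 3.78 and 11.8 ± 6.02 CPM and was not called either (log2 change -0.73 ± 0.39, edgeR adjusted p = 0.697). Hgf had near-equal means of 69.2 and 68.7 CPM and a log2 change of 0.0006 ± 0.82.

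At 12 h, 0 of the 10 genes were called in either direction, against 0.0% of the 14010 genes tested. At an unadjusted p under 0.05 edgeR gave 726 genes in all, 5.18%, and 0 of the 10, and DESeq2 called 2 genes higher and 1 lower in all and 0 of the 10. In plain CPM the groups did not overlap for Reln alone, lower at 12 h, against 5.41% of all genes. With the scaling factors of the fit Reln overlapped too. The log2 change was below 0 for 8 of the 10 genes, with a median of -0.40 against -0.01 over all genes. Without 12 h replicate 3, Bgn had a log2 change of 0.06, Dcn of 0.32 and Reln of -0.78. Without 12 h replicate 1, that of Hgf was -1.78 (edgeR adjusted p = 0.0793) and that of Bgn -1.17.

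Of 190 tested genes in the 13 other lists, 0 were called at 12 h by edgeR or by DESeq2, and 11 had an unadjusted p under 0.05 by edgeR. Of the further stellate markers the smallest p-values belonged to Pdgfra, which encodes the alpha PDGF receptor (12.8 ± 3.18 and 4.26 ± 3.24 CPM), and Nes (69.3 ± 6.14 and 41.7 ± 16.3 CPM). Met had means of 6.54 ± 4.45 and 17.4 ± 14.7 CPM. Acta2, the smooth muscle actin gene of activated stellate cells, was 2.35 ± 0.0136 and 4.79 ± 2.80 CPM. The median log2 change was -0.21 for further stellate markers, -0.30 for other collagens and matrix proteins, -0.47 for endothelial and -0.52 for Kupffer cell markers.

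The comparison of anti-CD41 with IgG asked how the antibody to the platelet protein changed the preparations after acetaminophen. Bgn rose from 67.7 ± 8.76 to 183 ± 15.5 CPM (SD, n = 3 each), a 2.52-fold difference with a log2 change of 1.33 ± 0.14 (SE; edgeR adjusted p = 0.0441). Its relative Dcn was 15.2 ± 11.5 and 18.2 ± 3.41 CPM and was not called (log2 change 0.12 ± 0.52, edgeR adjusted p = 0.926). Ecm1 was 103 ± 29.0 and 122 ± 11.5 CPM and Hgf 47.5 ± 16.4 and 54.9 ± 8.52 CPM, and neither was called, with log2 changes of 0.13 ± 0.23 and 0.09 ± 0.28. Col1a2 was 2.93 ± 1.90 and 5.73 ± 0.602 CPM, a log2 change of 0.84 ± 0.52 without a call (edgeR adjusted p = 0.424).

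With anti-CD41, 1 of the 10 genes was called higher and 0 lower, against 0.0671% and 0.00671% of the 14905 genes tested, or 0.0738% in either direction. Bgn was the 10th of all genes by p and 1 of 10 genes called higher in all, the other 9 being Cdh13, Plvap, Masp1, Dbp, Cyp26b1, Pcdh17, AU021092, Ackr4 and Pla2r1. The only gene called lower was Gdf15. In plain CPM the groups did not overlap, in the higher direction, for Bgn and Col1a2, against 18.2% of all genes. With the scaling factors of the fit, the groups of Col1a2 overlapped. The log2 change was above 0 for 8 of the 10 genes and below 0 for Pdgfrb and Des, with a median of 0.16 against 0.01 over all genes.

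The size of the Bgn change was stable, at 1.21 to 1.45 on the log2 scale when each library was left out in turn, but its call was not. It remained without anti-CD41 replicate 1 (edgeR adjusted p = 0.0438). The adjusted p was 0.150, 0.133 and 0.0704 without IgG replicates 1, 2 and 3, and 0.283 and 0.308 without anti-CD41 replicates 2 and 3. With DESeq2 size factors in edgeR it was 0.0571, and DESeq2 itself gave 7.35e-11.

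**Figure D4:**
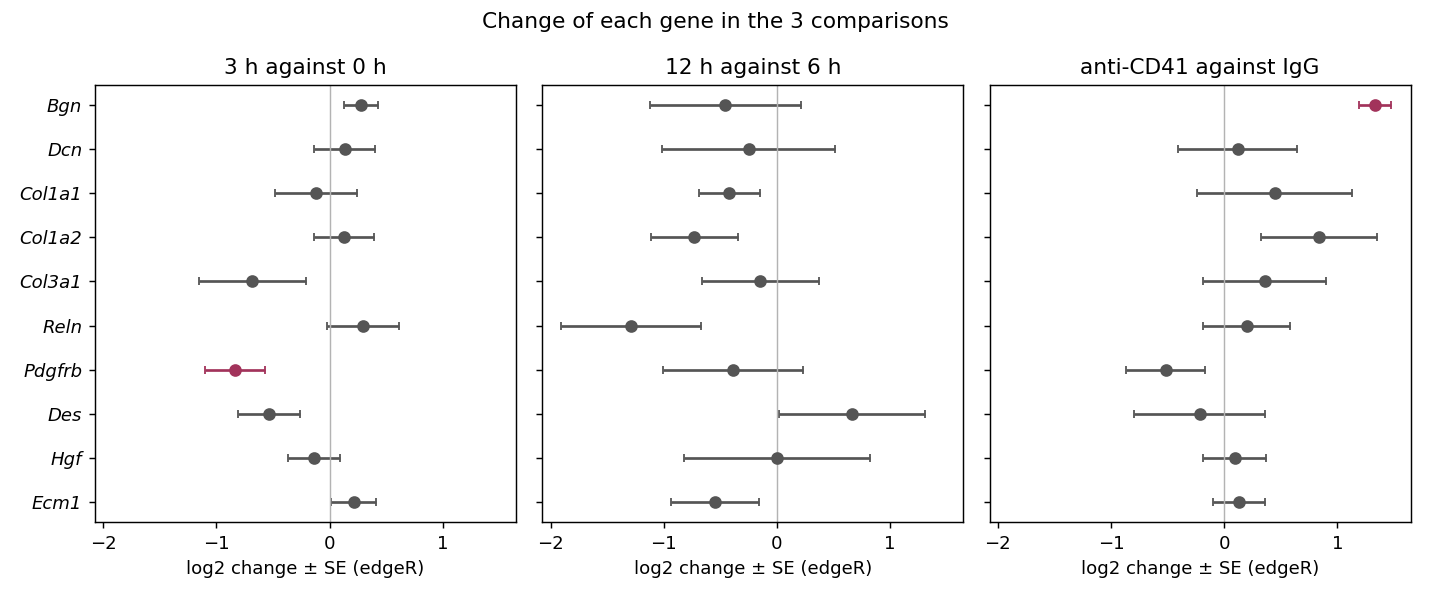
Log2 change and its standard error (edgeR) of each gene in the 3 comparisons, with called genes in red and a line at no change. Bgn at 1.33 with anti-CD41 and Pdgfrb at -0.84 at 3 h are the only called values, and the bars are widest for many genes at 12 h.

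Of 191 tested genes in the other lists, the main edgeR fit called 0 with anti-CD41, with 66 at an unadjusted p under 0.05. DESeq2 called 34 higher and 8 lower, edgeR with the replicate number as a block 19 and 2, and voom with library weights 22 and 4. Calls of listed genes given below are those of the main edgeR fit. Of 23 tested further stellate markers, 14 had groups that did not overlap in the higher direction, 11 had an unadjusted p under 0.05 (18.5% of all genes did), and the median log2 change was 0.94. Prelp, a proteoglycan gene of the family of Bgn and Dcn, was 8.33 ± 1.28 and 26.4 ± 6.79 CPM (edgeR adjusted p = 0.124), and Lrat 0.594 ± 0.467 and 3.11 ± 0.879 CPM (edgeR adjusted p = 0.161). Of 37 other matrix genes 12 did not overlap in the higher direction and 3 in the lower, with a median of 0.36. The 3 lower genes, named after their values were seen, were Fn1 (2206 ± 541 and 1106 ± 351 CPM), Vcan (365 ± 236 and 93.6 ± 54.6 CPM) and the thrombospondin gene Thbs1 (2491 ± 685 and 936 ± 615 CPM), and none was called. Among the higher, Lama4, a laminin chain of vessel walls, was 62.0 ± 10.1 and 150 ± 26.0 CPM, and Hspg2, which encodes perlecan, 593 ± 136 and 1321 ± 181 CPM. Serpinh1 was 53.5 ± 9.71 and 96.9 ± 3.83 CPM, and Pdgfd 2.88 ± 1.08 and 9.58 ± 2.60 CPM, and these 4 were not called.

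Endothelial markers lay higher with anti-CD41 too, none of them called. Of 16 endothelial markers 13 did not overlap in the higher direction and 12 had an unadjusted p under 0.05, with a median log2 change of 0.97. Their sum was 5962, 9514 and 10473 CPM with IgG and 13232, 17349 and 17486 CPM with anti-CD41. Further stellate markers summed to 105, 148 and 305 CPM with IgG and 179, 236 and 200 CPM with anti-CD41, which overlap. Of these sums, Nes alone was 36.4, 75.2 and 183 CPM with IgG and 70.9, 74.9 and 67.1 CPM with anti-CD41. Taken singly, 14 of the 23 tested further stellate markers did not overlap in the higher direction and 1 in the lower. Of 18 hepatocyte markers 2 did not overlap in the higher direction and 8 had an unadjusted p under 0.05, with a median log2 change of 0.99. They summed to 1619 to 2126 CPM and 1504 to 3794 CPM, and Kupffer cell markers (median 0.21) to 12956 to 16536 CPM and 12303 to 19356 CPM, which overlap. The part of the endothelial, stellate and hepatocyte marker shifts in the rise of Bgn was not tested.

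Bgn was also set against those sums within each library. Per 1000 CPM of endothelial markers it was 9.70, 7.46 and 7.11 CPM with IgG and 12.7, 11.5 and 10.5 CPM with anti-CD41, a smaller step that did not overlap. Per 1000 CPM of further stellate markers it was 549, 479 and 244 CPM with IgG and 937, 844 and 915 CPM with anti-CD41. That stellate sum includes Nes, at 183 CPM in IgG replicate 3 and 67.1 to 74.9 CPM with anti-CD41. Ecm1 and Hgf were lower with anti-CD41 on the endothelial unit, where the endothelial sum was higher while their own CPM overlapped between the groups. Ecm1 was 11.7, 12.4 and 11.7 CPM with IgG and 8.22, 7.51 and 7.23 CPM with anti-CD41, and Hgf was 5.26, 4.96 and 6.12 CPM with IgG and 3.70, 2.94 and 3.70 CPM with anti-CD41. Dcn per 1000 CPM of further stellate markers overlapped, at 61.3, 73.6 and 92.8 CPM with IgG and 83.8, 74.9 and 109 CPM with anti-CD41. These units were chosen after the levels had been seen, and no test was made on them.

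**Figure D5:**
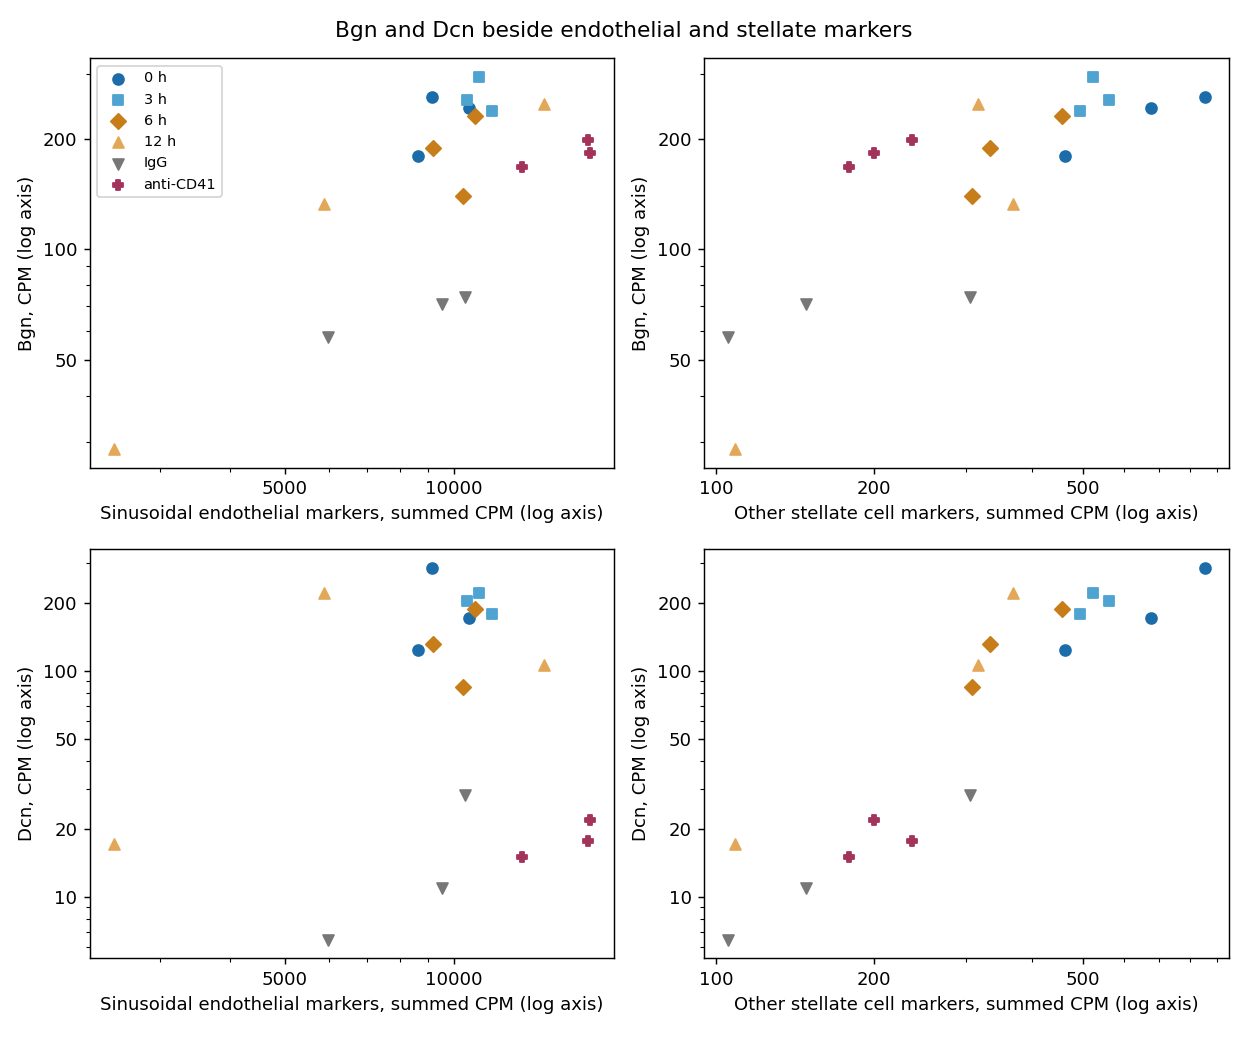
CPM of Bgn (top) and Dcn (bottom) against the summed CPM of 16 sinusoidal endothelial markers (left) and of 25 further stellate cell markers (right) in each of the 18 libraries, on log axes, with group shown by colour and shape. Dcn was 28.3 CPM in IgG replicate 3 and 106 CPM in 12 h replicate 1, which have similar stellate sums of unlike make-up. In the same order, Nes held 183 and 54.5 CPM of them, Prelp 8.64 and 28.6 CPM and Lrat 0.193 and 4.91 CPM. Each anti-CD41 library holds more Bgn than each IgG library.

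The genes most like each of the 10 differed by member. Likeness was Pearson's r of log2(CPM + 1), centred within each table, over the 18 libraries and 11853 genes with a mean of at least 1 CPM in each table. Libraries share their preparation and depth in this measure, so it is a description. Bgn was most like Kdr (r = 0.97), Dnase1l3 (0.97) and Fkbp9 (0.97), of which Kdr, a VEGF receptor gene, and Dnase1l3 were on the endothelial list. Hgf was most like Stab1 (0.93), a scavenger receptor gene of that list, then Spred3 and Afdn. Over the 6 libraries of 0 h and 3 h alone, r was lower, at 0.64 for Bgn with Kdr and 0.63, 0.42 and 0.26 for Hgf with Stab1, Spred3 and Afdn. Dcn was most like the laminin chain gene Lamb1 (0.91) and the further stellate markers Sod3 (0.90) and Colec11 (0.89), and Reln most like Pdgfra (0.91), Dact1 (0.90) and Col14a1 (0.89). Over the antibody libraries alone, r of Dcn was 0.55 with Sod3 and 0.51 with Colec11.

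Collagen genes were among those most like Col1a1, Col1a2 and Col3a1. Col1a1 was nearest to Col1a2 (0.83), Col3a1 (0.80) and Adgrd1 (0.79). Col1a2 was nearest to Col6a2 (0.86), which encodes a chain of type VI collagen, then Col1a1 (0.83) and Ddr2 (0.83). Col3a1 was nearest to Fstl1 (0.88), Col6a2 (0.81) and Col1a1 (0.80). Ecm1 was nearest to Bbs4 (0.93), Abi3bp (0.93) and Dab2ip (0.93). The genes nearest to Pdgfrb were Loxl1 (0.80), Sat1 (0.78) and Fgfr2 (0.75), and to Des Gpc4 (0.79), Abhd10 (0.78) and Fkbp1a (0.77). Over the antibody libraries alone, r of Pdgfrb with Fgfr2 was -0.35. Among the 100 genes most like each, 6 of 16 endothelial markers were listed with Bgn, 3 with Ecm1, 3 with Reln, 2 with Hgf and 1 with Dcn. Of 17 further stellate markers, 7 were listed with Col1a2, 6 with Reln, 4 with Col3a1 and 3 each with Dcn and Col1a1. Pdgfrb and Des had 2 each, Bgn and Ecm1 1 each and Hgf 0, with 100 of 11853 genes taken for each. Counted this way, Col1a2 and Reln stood nearest to the stellate markers and Bgn nearest to the endothelial ones, and no Kupffer cell or hepatocyte marker was among the 100 of any of the 10.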

How the data were processed

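Total RNA of Kupffer cell preparations was measured in 18 libraries. Reads were aligned with HISAT2 to GRCm38, per the submitters' processing notes. For the counter, the annotation and the versions, nothing is given in the sources used here. Per the file headers and values, the authors deposited expected counts (estimated counts, 35.3% to 36.2% of them not whole), FPKM and TPM for the time course, and whole-number counts for the antibody groups. The deposited TPM were not used, and the deposited FPKM served for levels between genes and as an alternative. Among the antibody symbols 27 had turned into dates and were restored, and for 19 shared symbols the row with the largest total was kept.

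Expected counts were rounded and fitted with the edgeR 4.0.16 quasi-likelihood test in R 4.3.3, as the antibody counts were: filterByExpr with a minimum count of 10, TMM, two-sided, Benjamini-Hochberg over all genes, threshold 0.05. Levels are plain CPM, and overlap between groups was judged on them without the TMM factors. The fit was tested on simulated data. The alternatives were limma 3.58.1 on FPKM and voom, DESeq2 1.42.0, other scalings, no filter, the replicate number as a block, and each library left out. An exact permutation test of 3 against 3 cannot go below p = 0.1 and was not used.

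The 10 genes, the 13 lists of 206 other genes and the comparisons were chosen with earlier results of these data known. Named are the 10 genes, up to 4 genes per list and comparison with the smallest p, all called genes where 5 or fewer were called, and the 3 genes most like each of the 10, leaving out predicted genes and pseudogenes. Lrat was named as a defining stellate marker, and the genes called with anti-CD41 after their values were seen. The values of 1 listed gene are not reported here. Every pair of libraries of a group differed by more than sampling noise (lowest chi-square per degree of freedom 15.8).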

Additional observations from a re-analysis of the deposited data

How the results depend on the processing

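Most values of the 10 genes kept their direction and call, with the exceptions given here, and the cause was not tested. Over all genes at 3 h, limma on log2(FPKM + 1) called 1783 higher and on log2(FPKM + 0.1) 1778, against 2703, and 0 of the 10 genes lower in each. DESeq2 called 652 genes higher and 469 lower with anti-CD41, and voom with library weights 419 and 210, against 10 and 1, while DESeq2 size factors in edgeR left 0 of the 10 genes called. At 12 h DESeq2 called 2 genes higher and 1 lower.

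The change of Hgf at 12 h was near 0 (0.0006) and turned to -0.0036 with DESeq2, -0.0037 with its size factors, -0.012 with library totals, -0.89 with voom, -0.65 on log2(FPKM + 1) and -0.71 on log2(FPKM + 0.1).

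Whether replicate numbers pair the libraries was not tested. Same-numbered deviations correlated at -0.0003, 0.31 and -0.16 at 0 h and 3 h, 0.31, -0.05 and 0.21 at 6 h and 12 h, and 0.17, 0.30 and 0.08 in the antibody groups. Differently numbered ones correlated at -0.30 to 0.24, -0.37 to 0.21 and -0.28 to 0.07 in the same order. Only in the antibody groups did every same-numbered value lie above all of these. With the replicate block, 0 of the 10 genes were called lower at 3 h (Pdgfrb -0.83, edgeR adjusted p = 0.0728), Hgf was -0.81 at 12 h, and 295 genes were called higher and 89 lower with anti-CD41.

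With 1 library left out, 1599 to 2671 genes were called higher and 1855 to 3521 lower at 3 h, the lowest without 0 h replicate 2 and without 3 h replicate 3, and 0 to 2 of the 10 genes lower. The 2 were Pdgfrb and Des (edgeR adjusted p = 0.0231 without 0 h replicate 1). At 12 h 0 to 1 were called in each direction, and with anti-CD41 0 to 91 higher, 0 to 19 lower and 0 to 1 of the 10. Log2 changes that crossed 0 at 3 h were -0.10 to 0.49 for Dcn, -0.32 to 0.18 for Col1a1, -0.051 to 0.44 for Col1a2 and -0.37 to 0.080 for Hgf. At 12 h they were -1.17 to 0.060 for Bgn, -1.12 to 0.32 for Dcn, -0.82 to 0.27 for Col3a1, -1.06 to 0.34 for Pdgfrb, -0.045 to 1.28 for Des and -1.78 to 0.46 for Hgf. With anti-CD41 they were -0.26 to 1.01 for Dcn, -0.032 to 1.23 for Col1a1, -0.032 to 1.28 for Col3a1, -0.041 to 0.71 for Reln, -0.49 to 0.23 for Des, -0.15 to 0.43 for Hgf and -0.10 to 0.32 for Ecm1.

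Counting error limits the low genes more than Bgn, Dcn and Ecm1. The fewest reads in a library were 20 for Des, 21 for Col1a1, 33 for Col1a2, 44 for Pdgfrb and 74 for Col3a1. Leaving out the filter, and scaling by library totals, changed no call of the 10 genes. No FPKM were used for the antibody groups.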
